A study of Homo sapiens with 4 samples.

Results

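The genes described here encode the subunits of RNA polymerases I, II and III. They are the 33 of 20263 rows in the table of gene counts whose symbol starts with POLR1, POLR2 or POLR3 and a subunit letter, so that POLRMT, the mitochondrial polymerase, is left out. Of these, 6 belong to polymerase I, 7 to polymerase II and 10 to polymerase III. Polymerases I and III share 2 more, and all 3 enzymes share 5. The remaining 3 are the RPB11 paralogues POLR2J2 and POLR2J3 and the associated protein gene POLR2M. MDA-MB-231, a human triple-negative breast cancer line, received Rib_CA for 24 h in 2 libraries, and DMSO in the other 2. The series title names Rib_CA as a derivative of ribociclib, an inhibitor of CDK4 and CDK6. The labels give no dose, and all libraries come from 1 cell line.

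Polymerase I transcribes the large ribosomal RNA precursor in the nucleolus, polymerase II transcribes messenger RNA, and polymerase III transcribes transfer RNA, 5S ribosomal RNA and other short RNAs. Each enzyme has a catalytic core made of its largest and its second-largest subunit, held on an assembly platform, with a stalk, a zinc ribbon subunit for RNA cleavage, and small subunits that all enzymes have in common. Polymerases I and III also carry built-in initiation modules that resemble general transcription factors of polymerase II. The libraries report the messenger RNA of the subunits, not the amount or activity of the enzymes, and fewer cells and less RNA per cell cannot be told apart in them.

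The libraries held 38865103 and 37772266 counts in Rib_CA, and 34774542 and 37754168 in DMSO. Mitochondrially encoded genes took 5.78% and 3.13% of the counts in Rib_CA 1 and 2, and 8.68% and 21.7% in DMSO 1 and 2. The line's markers VIM, CD44, AXL, CAV1, ANXA1 and MSN lay between 162 and 4221 CPM (counts scaled by TMM and set to a common library total of 1000000), while of 6 genes expected low, CDH1 had 0 to 3 counts and GATA3 reached 21.7 CPM. The subunit genes had from 68 to 21109 counts in a library, all far above a floor of 3 counts, which equals 0.0697 to 0.0911 CPM. All 33 passed the filter on low counts. The libraries of 1 group differed by far more than counting noise, and with 2 against 2 an exact permutation test of a single value cannot give a two-sided p below 0.333.

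Of the 33 subunit genes, POLR2G of polymerase II rose and POLR3B of polymerase III fell in Rib_CA at an adjusted p under 0.05 in edgeR's quasi-likelihood test. Over all 13667 genes tested, 2.01% were called higher and 5.11% lower, so single calls among 33 genes lie near the background. Without the adjustment, 3 members were higher and 5 lower at p under 0.05, where 13.7% and 14.7% of all genes were. Fitted fold changes were above 1 for 23 members, 69.7% of them, against 51.9% of all genes. The median log2 fold change was 0.25, against 0.03 over all genes. Both Rib_CA libraries lay above both DMSO libraries for 15 members, against 30.4% of all genes, and below them for 5, against 28.4%. Log2 fold changes ran from -1.66 for POLR3B to 1.94 for POLR1H. The summed level of all 33 was 2422 and 1808 CPM in the Rib_CA libraries, against 1953 and 2242 CPM in the DMSO libraries. Without POLR2A, the most abundant member, it was 1958 and 1651 CPM in Rib_CA, against 1633 and 1601 CPM in DMSO. When total counts were the only scaling, the median of all genes moved to 0.23 and that of the members to 0.47, and neither POLR2G nor POLR3B passed.

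**Figure D1:**
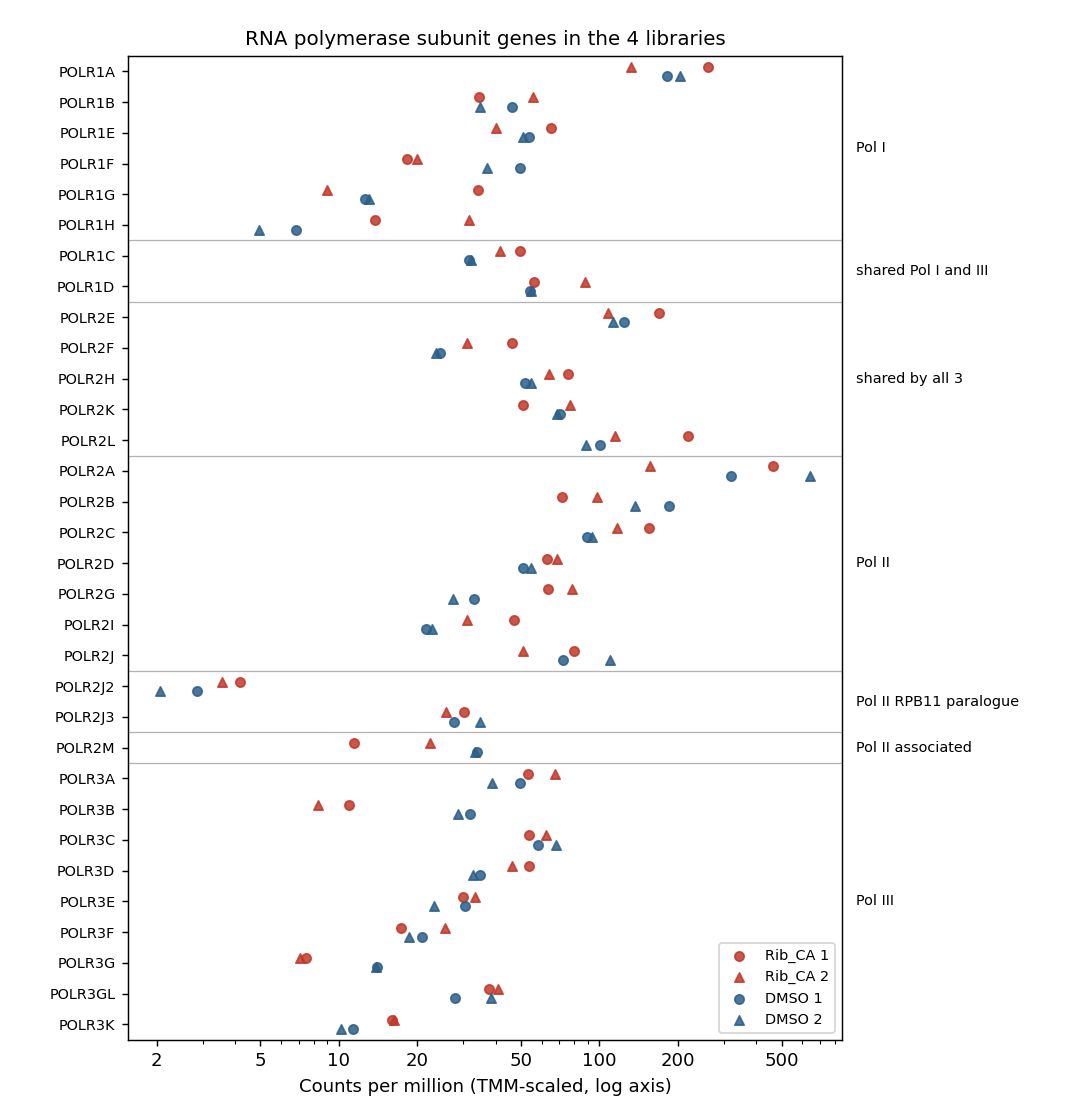
TMM-scaled CPM of 32 of the 33 subunit genes (horizontal log axis) in the 2 Rib_CA libraries (red) and the 2 DMSO libraries (blue), with circles for replicate 1 and triangles for replicate 2. POLR3B, POLR3G, POLR2B, POLR2M and POLR1F have both red symbols left of both blue ones, while POLR1G and POLR2A spread widely within a group.

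The calls depended on the tool and on single libraries. DESeq2 called 2 members higher (POLR2G and POLR1H), against 7.63% of all genes, and 4 lower (POLR3B, POLR1F, POLR2B and POLR3G), against 11.1%. limma-voom called POLR3B lower, against 4.81% of all genes, and no member higher, against 1.64%. At an unadjusted p under 0.05 it had 3 members higher and 5 lower, where 3851 of 13667 genes passed in either direction. Leaving out either DMSO library leaves 1 in that group, and edgeR calls became rarer over all genes, those of POLR2G and POLR3B among the lost. Without DMSO 1 or DMSO 2, the log2 fold change was 1.37 or 1.11 for POLR2G and -1.58 or -1.74 for POLR3B. Without Rib_CA 1, edgeR called 2 members higher (POLR2G and POLR1H; 8.84% of all genes) and 2 lower (POLR3B and POLR1F; 11.7%). Without Rib_CA 2, it called 6 higher (POLR1G, POLR1H, POLR2F, POLR2G, POLR2I and POLR2L; 8.22%) and 4 lower (POLR1F, POLR2B, POLR2M and POLR3B; 11.6%).

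**Figure D2:**
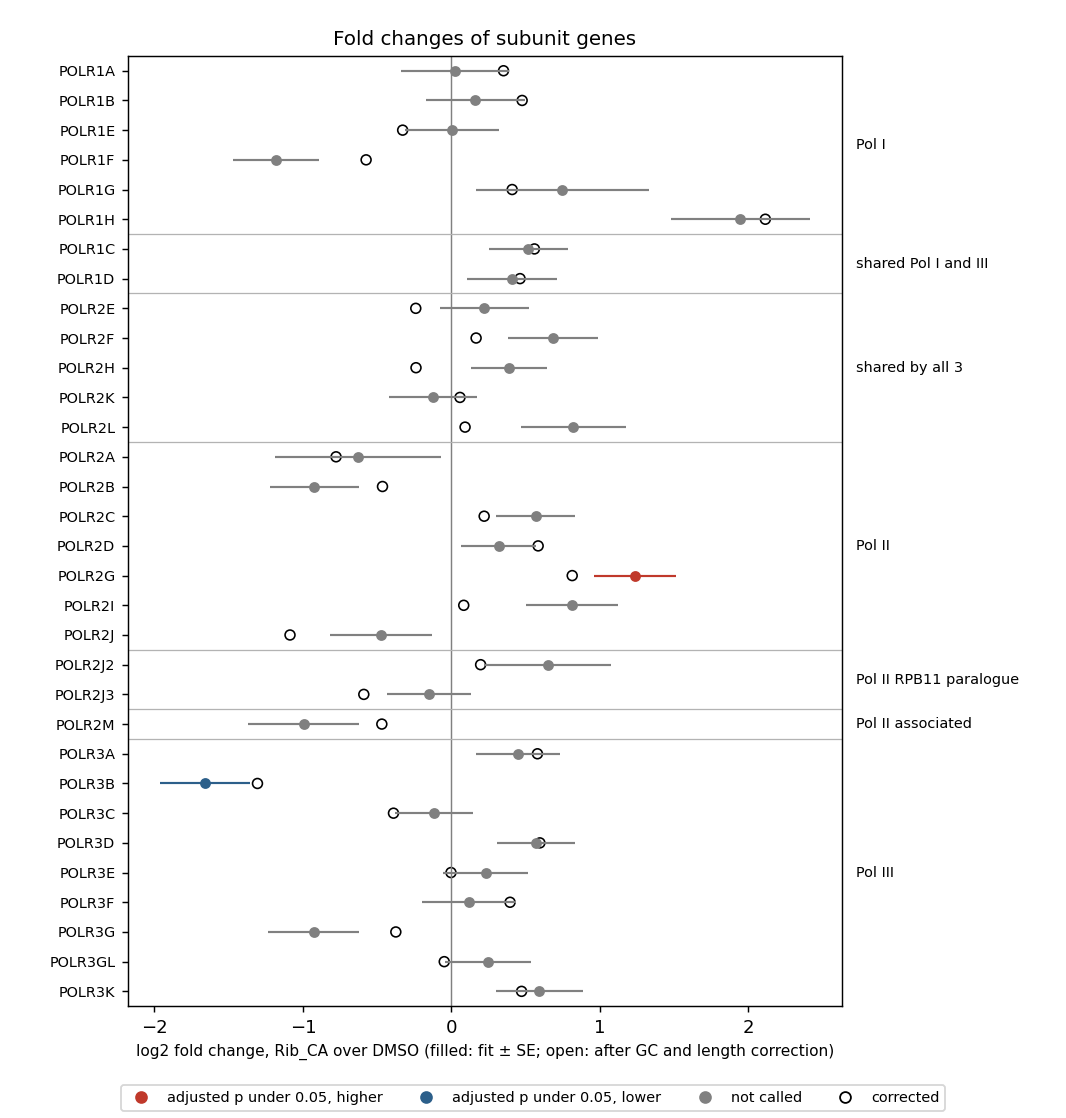
Log2 fold change of Rib_CA over DMSO for 32 of the 33 subunit genes, with the standard error of the edgeR fit (filled circles) and after the correction for GC content and transcript length (open circles). POLR2G at 1.24 and POLR3B at -1.66 are the 2 called members, and POLR1H at 1.94 has a wide error.

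In polymerase III, POLR3B was called lower and its catalytic partner POLR3A was not called. POLR3B encodes the second-largest subunit, which forms the active centre together with the largest. It had 10.9 and 8.29 CPM in the Rib_CA libraries, against 32.0 and 28.5 CPM in the DMSO libraries. The groups did not overlap, and the replicates of each lay within a factor of 1.31. POLR3B fell 3.15-fold (log2 fold change -1.66 ± 0.30 SE; adjusted p = 0.0321). Leaving out 1 library kept its log2 fold change between -1.91 and -1.48, and it was -1.31 after the correction for GC content and transcript length (adjusted p = 0.0897). POLR3A, the largest subunit, had 53.2 and 67.3 CPM in Rib_CA, against 49.4 and 38.8 CPM in DMSO, a log2 fold change of 0.45 ± 0.28 that did not pass (adjusted p = 0.344). Within each library, the ratio of POLR3A to POLR3B counts was 4.89 and 8.11 in Rib_CA, against 1.54 and 1.36 in DMSO. This separation follows from POLR3B lying below DMSO and POLR3A above it. POLR3B is 1 of the 3 members whose promoters are shown here, the others being POLR1F and POLR1H, since they have the lowest and the highest fold changes among members in the RefSeq table of promoter windows. The POLR3B gene lies at chr12:106357658-106510198 on the plus strand in GENCODE release 29 (GRCh38), and RefSeq (GRCh38.p14) gives 2 start sites, with windows chr12:106357498-106357797 and chr12:106357860-106358159. Capitals mark matches to the motifs named further on.
POLR3B, start site 1: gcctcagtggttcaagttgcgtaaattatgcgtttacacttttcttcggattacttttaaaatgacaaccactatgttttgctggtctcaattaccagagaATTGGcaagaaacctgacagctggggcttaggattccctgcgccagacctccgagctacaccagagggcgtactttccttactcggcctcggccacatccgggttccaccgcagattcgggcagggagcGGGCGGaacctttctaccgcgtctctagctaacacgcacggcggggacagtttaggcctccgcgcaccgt
POLR3B, start site 2: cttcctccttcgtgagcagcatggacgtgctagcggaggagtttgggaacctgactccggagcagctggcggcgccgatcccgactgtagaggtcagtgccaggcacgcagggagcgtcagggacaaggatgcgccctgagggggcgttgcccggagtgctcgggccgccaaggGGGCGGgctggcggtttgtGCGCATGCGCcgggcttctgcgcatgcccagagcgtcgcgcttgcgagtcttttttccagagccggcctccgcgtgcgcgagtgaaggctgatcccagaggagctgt

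The initiation heterotrimer of polymerase III holds POLR3C, POLR3F and 1 of the alternative subunits POLR3G and POLR3GL. POLR3G is known for its high level in pluripotent and transformed cells, and POLR3GL for its broad expression. POLR3G had 7.50 and 7.11 CPM in Rib_CA, against 14.0 and 13.8 CPM in DMSO. These groups were narrow and did not overlap, but the log2 fold change of -0.93 ± 0.31 did not pass in edgeR (adjusted p = 0.113; 0.0470 in DESeq2). POLR3GL had 37.8 and 40.9 CPM in Rib_CA, against 27.8 and 38.4 CPM in DMSO (log2 fold change 0.25 ± 0.29; adjusted p = 0.617). After the correction for GC content and length, the log2 fold changes were -0.37 for POLR3G and -0.048 for POLR3GL. The ratio of POLR3GL to POLR3G, without that correction, was 5.03 and 5.75 in Rib_CA, above 1.99 and 2.78 in DMSO. A read-through entry on the same strand holds 21.2% of the exonic bases of POLR3GL, and MBLAC2, on the opposite strand, 6.47% of those of POLR3G. POLR3C and POLR3F overlapped between groups, with log2 fold changes of -0.12 and 0.12. The other peripheral subunits had positive fold changes that did not pass. POLR3D and POLR3E form a heterodimer, with log2 fold changes of 0.57 ± 0.26 (adjusted p = 0.213) and 0.23 ± 0.29 (adjusted p = 0.643). POLR3K, the zinc ribbon subunit that acts in termination, had 16.1 and 16.3 CPM in Rib_CA, against 11.3 and 10.2 CPM in DMSO. Its replicates were close and the groups apart, yet its log2 fold change of 0.59 ± 0.29 did not pass (adjusted p = 0.239).

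In polymerase II, the largest subunit gene POLR2A encodes the tail of heptad repeats that CDK7 and CDK9 phosphorylate. It had 464 and 157 CPM in Rib_CA, against 320 and 641 CPM in DMSO. The replicates of each group differed by at least 2.0-fold, more than the group means, and the log2 fold change was -0.63 ± 0.56 (adjusted p = 0.50; -1.67 to -0.05 with 1 library left out). In each group, POLR2A was higher in the library with the larger mitochondrial share, 1 of 10 members with that pattern, while 11 were lower there; the part of this difference between libraries in the results was not tested. POLR2B, the second-largest subunit, had 71.5 and 97.7 CPM in Rib_CA, against 185 and 136 CPM in DMSO. The groups did not overlap, and the log2 fold change of -0.92 ± 0.30 did not pass in edgeR (adjusted p = 0.106; 0.0280 in DESeq2). It was -0.46 after the correction for GC content and length. The ratio of POLR2A to POLR2B was 6.48 and 1.61 in Rib_CA, against 1.73 and 4.70 in DMSO, so these groups overlapped.

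The stalk of polymerase II is made of POLR2D and POLR2G, known as RPB4 and RPB7, which bind the emerging RNA. POLR2G had 63.6 and 78.7 CPM in Rib_CA, against 33.0 and 27.4 CPM in DMSO. Both Rib_CA libraries lay well above both DMSO libraries. POLR2G rose 2.36-fold (log2 fold change 1.24 ± 0.28; adjusted p = 0.0486, and 0.0522 in limma-voom), with 1.07 to 1.37 on leaving out 1 library and 0.81 after the correction (adjusted p = 0.126). Its partner POLR2D had 62.9 and 68.6 CPM in Rib_CA, against 50.7 and 54.8 CPM in DMSO (log2 fold change 0.32 ± 0.25; adjusted p = 0.447). The ratio of POLR2G to POLR2D was 1.01 and 1.15 in Rib_CA, against 0.651 and 0.501 in DMSO. POLR2I, the zinc ribbon subunit RPB9, had 47.2 and 31.2 CPM in Rib_CA, against 21.7 and 22.9 CPM in DMSO. Its log2 fold change of 0.81 ± 0.31 did not pass (adjusted p = 0.147) and was 0.08 after the correction, and on the opposite strand TBCB holds 32.9% of its exonic bases and the unnamed entry ENSG00000279504, not in the table, 61.9%.

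The platform genes of polymerase II differed in direction, with neither past the test. POLR2C (RPB3) had 155 and 117 CPM in Rib_CA, against 89.8 and 93.8 CPM in DMSO, a log2 fold change of 0.57 ± 0.26 (adjusted p = 0.215). POLR2J (RPB11) had 80.1 and 50.8 CPM in Rib_CA, against 72.6 and 109 CPM in DMSO (log2 fold change -0.48 ± 0.34; adjusted p = 0.404). Its near-identical paralogues were lower in level: POLR2J3 had 30.3 and 25.9 CPM in Rib_CA, against 27.5 and 34.7 CPM in DMSO, and POLR2J2 had 4.16 and 3.55 CPM in Rib_CA, against 2.85 and 2.06 CPM in DMSO. Neither paralogue passed (adjusted p = 0.776 and 0.367), and reads of these 3 genes could be split between them by the counting, so their values are uncertain. A protein-coding entry on the same strand also holds 20.8% of the exonic bases of POLR2J2. For POLR2J3 such entries hold from 15.5% to 49.3%, the largest share being that of a second POLR2J3 entry that was not counted. POLR2M encodes Gdown1, which binds polymerase II and keeps initiation factors from it. It had 11.5 and 22.3 CPM in Rib_CA, against 33.9 and 33.3 CPM in DMSO. Both Rib_CA libraries were lower but differed 1.94-fold from each other, and the log2 fold change of -0.99 ± 0.37 did not pass (adjusted p = 0.143). The read-through gene GCOM1 on the same strand holds 21.1% of its exonic bases.

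In polymerase I no gene passed the test in edgeR, and the members farthest from DMSO were POLR1H above it and POLR1F below it. POLR1A, the largest subunit, had 260 and 132 CPM in Rib_CA, against 182 and 204 CPM in DMSO, a log2 fold change of 0.02 ± 0.36 whose sign differed between settings. POLR1B, the second-largest, had 34.6 and 55.8 CPM in Rib_CA, against 46.2 and 34.6 CPM in DMSO (log2 fold change 0.16 ± 0.34). POLR1H, the zinc ribbon subunit, had 13.7 and 31.6 CPM in Rib_CA, against 6.83 and 4.92 CPM in DMSO. Both Rib_CA libraries lay above both DMSO libraries, though they differed 2.30-fold from each other. Its 3.85-fold higher level (log2 fold change 1.94 ± 0.47) missed the threshold in edgeR (adjusted p = 0.0562) and passed in DESeq2 (adjusted p = 0.0011). With 1 library left out the log2 fold change ran from 1.22, without Rib_CA 2, to 2.39, without Rib_CA 1. It was 2.11 after the correction for GC content and length (adjusted p = 0.0852). POLR1HASP on the opposite strand holds 24.5% of its exonic bases, so its reads can be told apart only if the counting used strand. POLR1F, the stalk subunit that contacts the initiation factor RRN3, had 18.2 and 19.9 CPM in Rib_CA, against 49.3 and 37.1 CPM in DMSO. The groups were apart, and the 2.27-fold lower level (log2 fold change -1.18 ± 0.29) missed the threshold in edgeR (adjusted p = 0.0585) and passed in DESeq2 (adjusted p = 0.0030). It was -0.57 after the correction. The ratio of POLR1H to POLR1F was 0.752 and 1.59 in Rib_CA, against 0.139 and 0.133 in DMSO, a separation that follows from taking one gene above DMSO and one below it. The window of POLR1H is chr6:30061015-30061314 on the plus strand and that of POLR1F is chr7:19708988-19709287 on the minus strand (RefSeq, GRCh38.p14).
POLR1H: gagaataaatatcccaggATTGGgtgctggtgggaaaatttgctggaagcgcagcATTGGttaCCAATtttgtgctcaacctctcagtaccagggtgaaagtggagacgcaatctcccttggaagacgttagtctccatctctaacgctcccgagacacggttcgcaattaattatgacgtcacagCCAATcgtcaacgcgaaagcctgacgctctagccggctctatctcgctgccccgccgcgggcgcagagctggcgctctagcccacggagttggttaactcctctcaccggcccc
POLR1F: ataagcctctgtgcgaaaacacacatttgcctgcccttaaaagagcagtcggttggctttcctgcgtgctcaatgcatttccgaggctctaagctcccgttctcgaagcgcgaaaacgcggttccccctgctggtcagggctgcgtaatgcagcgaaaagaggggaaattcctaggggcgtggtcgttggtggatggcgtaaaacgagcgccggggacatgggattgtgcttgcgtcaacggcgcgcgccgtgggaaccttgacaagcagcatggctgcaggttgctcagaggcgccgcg

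The heterodimer genes POLR1E and POLR1G, which encode PAF53 and PAF49, did not pass either. POLR1E had 65.0 and 39.9 CPM in Rib_CA, against 53.4 and 51.1 CPM in DMSO, with a log2 fold change of 0.005 ± 0.32 whose sign differed between settings. POLR1G had 34.2 CPM in Rib_CA 1 and 9.01 CPM in Rib_CA 2, against 12.6 and 13.1 CPM in DMSO. The Rib_CA libraries thus lay on either side of DMSO, 3.79-fold apart, the widest replicate spread of any member. Its log2 fold change of 0.75 ± 0.58 (adjusted p = 0.440) was -0.56 without Rib_CA 1 and 1.41 without Rib_CA 2. ERCC1 on the opposite strand holds 43.5% of the exonic bases of POLR1G.

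**Figure D3:**
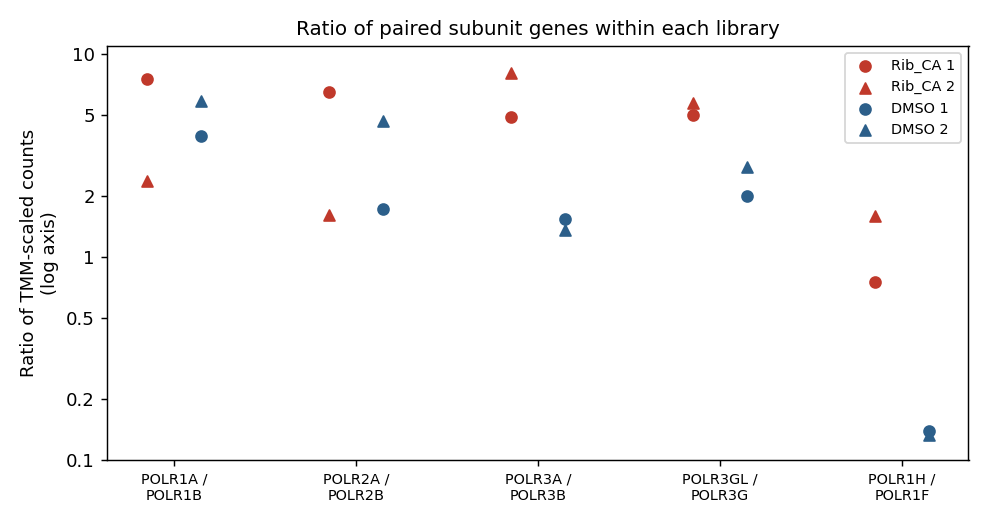
Ratio of TMM-scaled counts of 5 pairs of subunit genes within each library (vertical log axis), for Rib_CA (red) and DMSO (blue), with circles for replicate 1 and triangles for replicate 2. The groups are apart for POLR3A over POLR3B, POLR3GL over POLR3G and POLR1H over POLR1F, which for the first and last pair follows from one gene lying above DMSO and the other below, and overlap for POLR1A over POLR1B and POLR2A over POLR2B.

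Subunits shared between enzymes lay mostly above DMSO, and none passed. POLR1C and POLR1D, the assembly platform of polymerases I and III, were above in both Rib_CA libraries, as were 30.4% of all genes. POLR1C had 49.7 and 41.6 CPM in Rib_CA, against 31.5 and 32.2 CPM in DMSO (log2 fold change 0.52 ± 0.27; adjusted p = 0.251). POLR1D had 56.1 and 87.9 CPM in Rib_CA, against 53.9 and 54.5 CPM in DMSO (log2 fold change 0.41 ± 0.30; adjusted p = 0.417). Of the 5 common subunits, POLR2F, POLR2H and POLR2L had both Rib_CA libraries above both DMSO libraries, against 30.4% of all genes. POLR2L (RPB10) had 219 and 115 CPM in Rib_CA, against 100.4 and 88.6 CPM in DMSO, a log2 fold change of 0.82 ± 0.35 (adjusted p = 0.188). CD151 on the opposite strand holds 22.5% of its exonic bases. POLR2F (RPB6) had 46.2 and 31.2 CPM in Rib_CA, against 24.5 and 23.7 CPM in DMSO, with a log2 fold change of 0.68 ± 0.30, and POLR2H (RPB8) had one of 0.39 ± 0.26. After the correction for GC content and length these 3 were at 0.09, 0.17 and -0.24. POLR2E (RPB5) and POLR2K (RPB12) overlapped between groups, at 0.22 ± 0.30 and -0.12 ± 0.29. No common subunit was called, and the 5 had a median log2 fold change of 0.39, or 0.06 after the correction.

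Per kilobase of the longest annotated transcript, levels differed widely among the subunits of 1 enzyme. POLR2L had the highest level, 187 CPM per kilobase in Rib_CA and 106 in DMSO. In DMSO it was followed by POLR2J at 97.7, POLR2A at 71.2 and POLR2K at 68.2 CPM per kilobase. Polymerase III genes other than POLR3C and POLR3GL lay between 2.22 and 11.6 CPM per kilobase in Rib_CA, and between 4.23 and 8.18 in DMSO. POLR3B was at 2.25 CPM per kilobase in Rib_CA and 7.08 in DMSO, and POLR3A at 9.07 in Rib_CA and 6.64 in DMSO. In DMSO 1 and 2 this pair lay close, with POLR3B at 7.48 and 6.68 and POLR3A at 7.44 and 5.85. These levels assume the longest transcript, which is not the main one for every gene.

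Fold changes in these libraries ran along GC content and transcript length. Across the 33 members, Spearman's rho of the log2 fold change was 0.44 with GC content and -0.28 with length, against 0.48 and -0.34 across 13651 genes, given as a description since genes of the same libraries are not independent. POLR3G, POLR1F, POLR2M, POLR2B and POLR3B, the 5 members with both Rib_CA libraries below DMSO, had 34.3, 37.3, 37.6, 41.9 and 44.0% GC, under the members' median of 49.7%. The 15 members with both Rib_CA libraries above DMSO spanned 45.3% (POLR3K) to 60.9% GC (POLR2I), on both sides of that median. After the correction for both properties, 19 members had positive and 14 negative log2 fold changes. The members' median was then 0.09, against 0.03 for all genes, and no gene of the table passed in edgeR, with 4 members higher and 3 lower at an unadjusted p under 0.05, where 13% and 11.9% of all genes were. The correction moved POLR3B least among those 5, to -1.31, and POLR1H stayed the highest of all members.

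**Figure D4:**
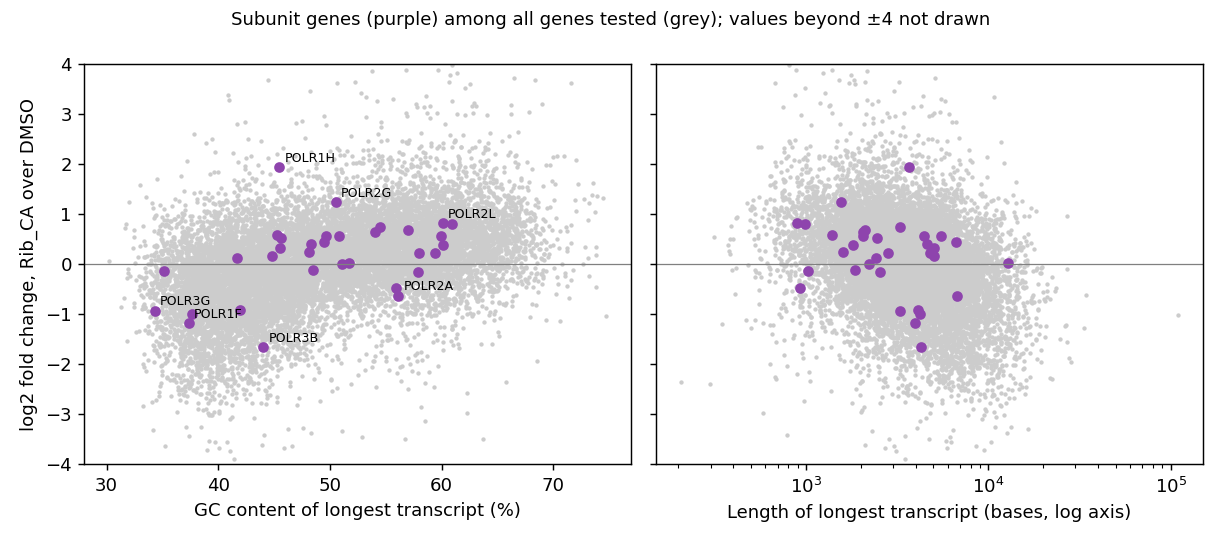
Log2 fold change of Rib_CA over DMSO against the GC content (left) and the length (right, log axis) of each gene's longest transcript, for the 33 subunit genes (purple) over all genes tested (grey). POLR1H lies at 1.94 in the upper part of the grey cloud at 45.5% GC, and POLR3B at -1.66 in its lower part at 44.0% GC. Fold changes beyond 4 on either side are not drawn.

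Among 5 lists of genes that work with the polymerases, 4 genes fell and 1 rose, where 5.11% and 2.01% of all genes did. Of 19 assembly and import factors, RPAP2 and RPAP3 fell and PDRG1 rose. RPAP2 takes part in nuclear import of polymerase II and removes phosphate from its tail. It had 18.0 and 18.4 CPM in Rib_CA, against 59.4 and 65.0 CPM in DMSO (3.42-fold lower; adjusted p = 0.0285). RPAP3, which links HSP90 to subunit assembly in the R2TP complex, had 10.9 and 13.4 CPM in Rib_CA, against 45.1 and 36.5 CPM in DMSO (3.35-fold lower; adjusted p = 0.0296). PDRG1, a component of the prefoldin-like part of that complex, had 52.0 and 51.7 CPM in Rib_CA, against 18.9 and 16.7 CPM in DMSO (2.91-fold higher; adjusted p = 0.0297). Over the whole list the median was 0.32 on the log2 scale, and 12 of its 19 genes had fitted fold changes above 1, or 63.2%, against 51.9% of all genes. After the correction for GC content and length the median was 0.0099, with 10 positive and 9 negative values.

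Of 18 polymerase III initiation factors and regulators, BDP1 alone passed. BDP1 is a subunit of TFIIIB, which places polymerase III at its start sites, and had 22.5 and 19.0 CPM in Rib_CA, against 101 and 63.4 CPM in DMSO (3.96-fold lower; adjusted p = 0.0293). MAF1, the repressor of polymerase III, had a value of 0.02 on the log2 scale, and CRCP, the subunit whose symbol lies outside the POLR pattern, one of -0.03; both were named after their values were seen. The list's median was -0.12, or -0.24 after the correction for GC content and length, with 4 positive and 14 negative values. Of 31 general transcription factor genes of polymerase II, TAF2 of TFIID fell, with 29.8 and 21.2 CPM in Rib_CA, against 92.6 and 69.5 CPM in DMSO (3.18-fold lower; adjusted p = 0.0334). Their median was -0.11, or -0.12 after the correction. Both Rib_CA libraries lay below both DMSO libraries for 13 of these 31 and above for 4, or 41.9% and 12.9% of them, against 28.4% and 30.4% of all genes. Of 18 tail kinases and phosphatases, RPAP2 was again the 1 called gene, and the median was 0.02, or -0.053 after the correction. None of 9 polymerase I factors passed in edgeR, with 2 lower and 0 higher at an unadjusted p under 0.05, where 14.7% and 13.7% of all genes were. TOP1, the topoisomerase that relieves DNA strain, stood at -0.97 ± 0.27 on the log2 scale (adjusted p = 0.0758; 0.0093 in DESeq2), or -0.51 after the correction. The termination factor TTF1 stood at -0.74 ± 0.31 (adjusted p = 0.175), or -0.50 after the correction. That list's median was -0.26, or -0.093 after the correction and -0.062 with total counts alone. After the correction for GC content and length the called genes were at -0.66 (RPAP2), -1.13 (RPAP3), 1.17 (PDRG1), -0.92 (BDP1) and -0.99 (TAF2). Without DMSO 1 all of these calls were absent, and without DMSO 2 those of RPAP2 and PDRG1. Calls were rarer over all genes in both settings, which leave 1 DMSO library. Without DMSO 1 or DMSO 2, RPAP2 was at -1.84 or -1.71 on the log2 scale and PDRG1 at 1.63 or 1.45. RPAP3 was then at -1.59 or -1.89, BDP1 at -1.62 or -2.29 and TAF2 at -1.45 or -1.86. With total counts alone, TAF2 (adjusted p = 0.0531) and RPAP3 (adjusted p = 0.0563) missed the threshold too.

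**Figure D5:**
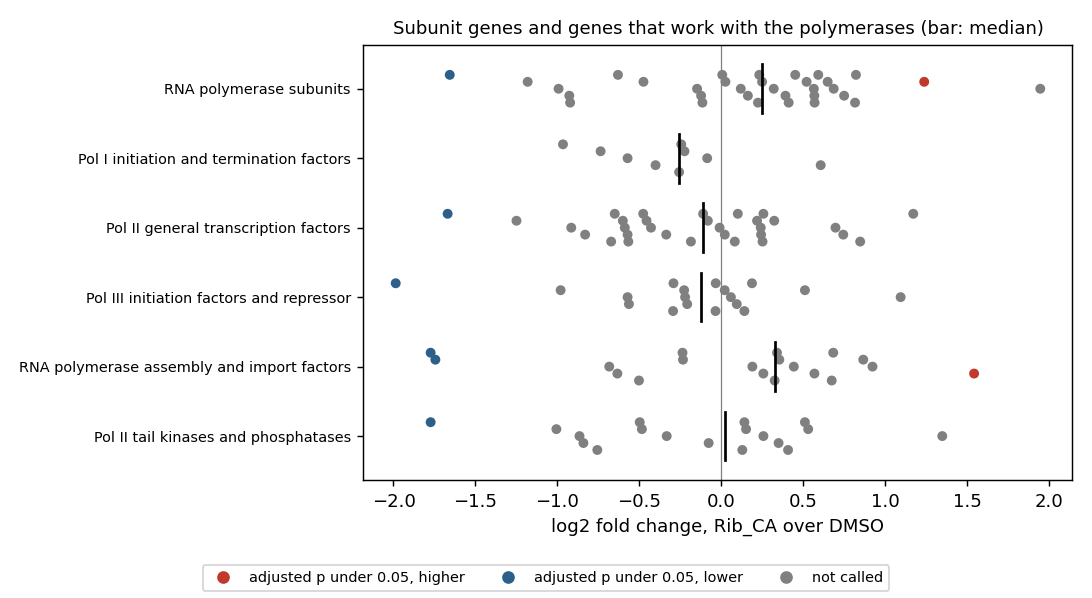
Log2 fold change of Rib_CA over DMSO for the subunit genes and for 5 lists of genes that work with the polymerases, 1 point a gene, with black bars at the medians and calls in red (higher) and blue (lower). The subunit genes have a median of 0.25 (0.092 after the correction for GC content and length), the polymerase I factors one of -0.26 (-0.093 after it), and BDP1, at -1.99, is the lowest point.

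Promoter windows of 300 bases around and mostly before a start site were found in the RefSeq table for 24 of the 33 members, 30 windows in all. They were searched on both strands for 8 motifs. These were the TATA box as TATAAA, the reversed or forward letters CCAAT, a GC box spelled GGGCGG, an ETS core spelled CGGAAG, a YY1 site spelled AAGATGGC, an E-box spelled CACGTG and an E2F site spelled TTTGGCGC, besides the NRF1 palindrome, which is the first capital run after the GC box in the second POLR3B window. There was 1 overlap between matches of different motifs. A GC box was present in 70% of the members' windows, against 45.0% of the 35116 windows of all genes. An ETS match was present in 50% of them, against 19.5%, and an NRF1 match in 13.3%, against 1.24%. The NRF1 share counts 1 site of POLR2F in both of its overlapping windows, as does the ETS share, and by gene 3 of 24 held an NRF1 match and 13 of 24 an ETS match. A CCAAT box was present in 20%, against 34.6%. An E-box was present in 13.3%, against 7.26%, a YY1 match in 3.33%, against 2.89%, and an E2F match in 0 of 30 windows, against 0.652%. A TATA box was found in 1 member window, that of POLR2M, against 11.5% of all windows. The POLR1H window held 4 CCAAT boxes, in either orientation, and POLR1F held none of the 8 motifs. The windows of POLR3B held a CCAAT box and a GC box at the first start site, and a GC box and an NRF1 match at the other. POLR3A had ETS and E-box matches, so the catalytic genes of polymerase III shared no motif searched here. A match is a run of letters and not a measured binding site.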

How the data were processed

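Messenger RNA of MDA-MB-231 cells was sequenced in 2 libraries per group. The deposited table holds raw counts per gene, whole numbers with no normalisation. GRCm38 and mm10, mouse builds, are the genomes listed in the submitters' processing notes, although the 20263 row names are human Ensembl IDs. For the aligner, the counter and strand use, the entry is not given in the sources used here. Of values from 1 to 10, 67.7 to 70.7% were even, as when both mates of a pair are counted, so floors cover counting error only. The labels do not say whether replicates were separate cultures, and p-values measure the spread between these libraries, which may be technical.

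Symbols were found for 20148 IDs. Genes were kept by filterByExpr (minimum count 10, total 15), which left 13667, and scaled by TMM. edgeR 4.0.16 in R 4.3.3 (robust quasi-likelihood test, 2 residual degrees of freedom) compared Rib_CA with DMSO over all genes, with Benjamini-Hochberg adjustment and a threshold of 0.05. This fit, without the correction below, was tested on simulated data. Standard errors are the absolute log2 fold change over the root of F. Transcript length and GC content are those of the longest transcript in GENCODE release 29 (GRCh38). The correction for them fits a smooth (mgcv 1.9.3, 6 basis functions) of each library's log2 deviations and uses it as an offset. Since the smooth is fitted to treated and control libraries alike, it also takes out treatment differences that follow either property. DESeq2 1.42.0 and limma-voom (limma 3.58.1) were run on the same genes. Figures were drawn with matplotlib 3.10.9.

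Members, gene lists, tests and alternatives were chosen with earlier results of these data known. By rule every member is named, except 1 that is not reported here by name and is kept in the counts and medians, and of each list the genes that passed (at most 4) or, where none did, the 2 with the smallest p. The crossed pairing of replicates was chosen after seeing the data.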

Additional observations from a re-analysis of the deposited data

How the results depend on the processing

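The number of subunit genes called higher, 1 in the edgeR fit with TMM, was 0 with total-count scaling, limma-voom and both corrections for GC content (alone or with length), and 2 without the count filter, with a filter of 5 CPM (32 members tested), in DESeq2 and without mitochondrially encoded genes. The number called lower, also 1, was 0 with total-count scaling and both corrections, 2 with no filter or 5 CPM, and 4 in DESeq2. Higher calls over all genes were 2.01% in the edgeR fit with TMM, 2.77% without the filter, 3.82% at 5 CPM and 7.63% in DESeq2. They were 2.8% without mitochondrially encoded genes, 1.9% with total counts, 1.64% in limma-voom and 0 after the corrections. Lower calls were 5.11%, against 5.42% without the filter, 7.39% at 5 CPM, 11.1% in DESeq2, 2.4% with total counts and 0 after corrections. Leaving out 1 library gave 0 to 6 higher and 0 to 4 lower. Over all genes, calls also became rarer without either DMSO library and more frequent without either Rib_CA library. The members' median of 0.25 was 0.47 with total counts alone and 0.092 after the correction for GC content and length. At 0 calls after the corrections, 3653 (GC content) and 3399 genes (both properties) had an unadjusted p under 0.05, against 3879 without them. The cause of these shifts was not tested.

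With a replicate block, 1 member was higher and 1 lower, where 1.9% and 5.03% of all genes were. Whether shared replicate numbers pair the libraries is not known. The replicate differences of the 2 groups correlated at -0.19 over all genes and -0.50 over the subunit genes, which cannot settle it. Under the block the higher gene was POLR1H, while POLR2G missed the threshold (adjusted p = 0.0682). The crossed pairing, chosen after seeing the data, called 2 higher and 3 lower, where 5.3% and 9.27% of all genes were.

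Fitted values changed sign between settings only for members that were not called in the edgeR fit with TMM on all libraries. POLR1E was -0.00975 in DESeq2 and with its size factors in edgeR, -0.040 in limma-voom, -0.037 under either block, -0.18 with the GC correction and -0.33 with both properties. POLR1A was -0.055 in limma-voom and under either block, and -0.19 with the GC correction. Total counts gave 0.056 for POLR2J3, 0.093 for POLR2K and 0.098 for POLR3C. The GC correction gave -0.22 for POLR2E, -0.046 for POLR2H, 0.49 for POLR2K and -0.13 for POLR3E. Both properties gave -0.24 for POLR2E and POLR2H, 0.058 for POLR2K, -0.048 for POLR3GL and -0.0027 for POLR3E. On leaving out 1 library, POLR1A ran from -0.59 to 0.43, POLR1B from -0.23 to 0.43, POLR1E from -0.43 to 0.31, POLR1G from -0.56 to 1.41, POLR2E from -0.18 to 0.51, POLR2J3 from -0.31 to 0.025, POLR2K from -0.46 to 0.10 and POLR3F from -0.19 to 0.33. With 2 libraries a group, the precision is set by replicate spread and not by depth.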
